A study of Oryza sativa Japonica Group with 4 samples.

Results

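Plants silence genes with small RNAs that are cut from double-stranded RNA. Dicer-like (DCL) enzymes do the cutting, RNA-dependent RNA polymerases (RDR) copy single-stranded RNA into new double-stranded RNA, and Argonaute (AGO) proteins hold the small RNA and act on the matching transcript or chromatin. In rice, the branch of this pathway that makes trans-acting small RNAs is needed to form the shoot meristem. Dicer-like enzymes also cut a transgenic hairpin RNA into the small RNAs that silence its target. The genes described here are 10 of the 37862 genes in the count table, chosen by identifier: 5 Dicer-like genes (DCL1, DCL2a, DCL3a, DCL3b and DCL4), RDR6, and 4 Argonaute genes (AGO1b, AGO7, AGO18 and Os01g0275200, which the list gives as AGO4a).

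Their transcripts were measured in young panicles of 0.1 to 0.5 cm of the rice cultivar TP309. There were 2 libraries of wild type (WT) and 2 libraries of the transgenic line 14 (OsbZIP47KD). Line 14 carries a hairpin against part of the 3′ UTR of OsbZIP47, a bZIP transcription factor gene, under the maize ubiquitin promoter, which is active throughout the plant. All 4 libraries were made from total RNA of panicle tissue after removal of ribosomal RNA. The study compared the groups to find genes that depend on OsbZIP47. Both transgenic libraries come from 1 line, and no line with another hairpin was among the samples. An effect of making a hairpin, of silencing OsbZIP47 and of this particular line therefore cannot be told apart. Panicles were matched by a range of size, so a difference of plant age or panicle stage cannot be told apart from these effects either.

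The libraries held 3839165 to 5611969 counted reads, of which the 10 genes together took 0.118% to 0.149%. Levels are given as CPM, the reads of a gene relative to the TMM-scaled total of its library, and 1 read was worth 0.189 to 0.261 CPM. OsbZIP47 (Os06g0265400) had 471 and 261 reads in WT and 1003 and 919 in the libraries labelled OsbZIP47KD, a log2 fold change of 1.77 (adjusted p = 0.0141, edgeR). The study assayed the endogenous transcript of line 14 panicles by qRT-PCR as well, which is not analysed here. Reads of the hairpin can count toward this gene, so its count does not check the labels, and every direction below rests on them. Names of marker genes could be paired for 3 of 11 young panicle identifiers, 2 of 9 of leaf and 1 of 8 of germline and anther. All of them are genes that the study called different between these groups. Their differences were thus part of how they were kept and are no independent measure of tissue composition. The panicle markers OsMADS16, DL and APO1 were detected in all 4 libraries and summed to 42.6 to 45.9 CPM in WT and 67.6 to 135 CPM in OsbZIP47KD, the leaf markers CAB1R and CAB2R to 136 to 191 and 48.3 to 67.3 CPM, and the anther gene TDR had no read in WT replicate 1 and was at 8.83 CPM in OsbZIP47KD replicate 2. The panicle sum of OsbZIP47KD replicate 2 held 72.3 CPM of OsMADS16, against 23.5 CPM in OsbZIP47KD replicate 1. Of the markers CAB1R alone passed the adjusted threshold, at a log2 fold change of -2.40 (adjusted p = 0.00357, edgeR). The part of these differences in the values below was not tested, and fewer cells of a type cannot be told apart from less RNA per cell in bulk tissue.

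AGO18 had the widest difference between the groups among the 9 genes that could be tested, and no gene of the 10 passed the adjusted threshold. All 9 log2 fold changes of OsbZIP47KD over WT were negative, or 7 of 9 with upper quartile or library size scaling, and their median was -0.30, against 48.7% of genes below 0 and a median of 0.02 over all 25289 genes tested. The quasi-likelihood test of edgeR with a Benjamini-Hochberg adjusted p under 0.05 called 0 of 9. Over all genes it called 0.649%, of which 0.522% of all genes were lower and 0.127% higher. At an unadjusted p under 0.05 the number was 1 of 9, against 14.1% of all genes. DESeq2, edgeR's exact test and limma also called 0. A difference in this direction is common among genes of like abundance: of tested genes with a mean of 30 to 100 CPM 63.1% lay below 0 with a median of -0.11, and of those from 100 CPM upward 67.6% with a median of -0.16, whereas of genes at 10 to 30 CPM, where AGO18 lies, 47.4% did, with a median of 0.03. The part of this trend in the members' values was not tested.

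**Figure D1:**
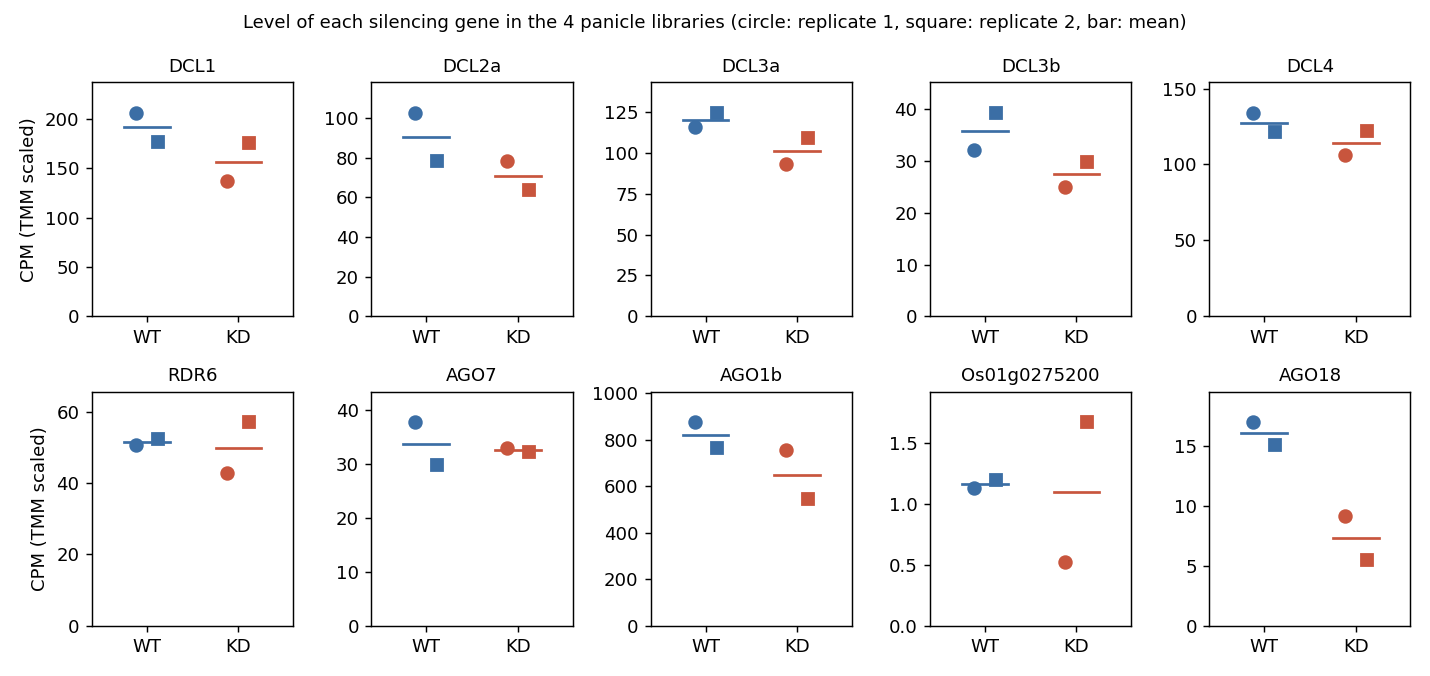
CPM after TMM scaling (vertical axes, from 0, each gene on its own scale) of the 10 genes in the WT (blue) and OsbZIP47KD (red) libraries. Circles are replicate 1, squares replicate 2 and bars the mean of 2. The AGO18 points of OsbZIP47KD, at 9.14 and 5.49 CPM, lie well under the WT points at 17.0 and 15.1 CPM, and the points of RDR6 and AGO7 overlap between the groups.

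AGO18 (Os07g0471300) encodes an Argonaute of the grasses that in rice takes part in defence against viruses by binding miR168, a microRNA that otherwise acts on AGO1 transcripts. It had 90 and 76 reads in WT and 35 and 23 reads in the libraries labelled OsbZIP47KD, that is 17.0 and 15.1 CPM against 9.14 and 5.49 CPM. Both transgenic libraries lay below both WT libraries, with a mean of 7.31 ± 2.58 CPM (SD, n = 2) against 16.03 ± 1.32 CPM (SD, n = 2). Its log2 fold change was -1.13 (standard error 0.41, 95% interval -2.04 to -0.23), a level 2.20-fold lower in OsbZIP47KD, with an unadjusted p of 0.0178 and an adjusted p of 0.242 (edgeR), so it missed the threshold. It did meet the looser rule that the study used, a log2 size of 1 or more with an unadjusted p of 0.05 or less. That rule was met by 7.12% of all tested genes, with 2.5% lower and 4.62% higher. AGO18 is on the study's own list of lower genes, which was drawn from these samples, so meeting that rule is not separate evidence. Without WT replicate 1 the unadjusted p was 0.0712, and without OsbZIP47KD replicate 2 it was 0.101 with a log2 fold change of -0.81, and in both cases the rule was no longer met.

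A share of reads within a library needs no scaling between libraries. Of the summed reads of AGO18 and AGO1b, AGO18 made up 1.90% (95% exact binomial interval 1.53% to 2.33%) in WT replicate 1 and 1.94% (1.53% to 2.42%) in WT replicate 2. In OsbZIP47KD it made up 1.20% (0.836% to 1.66%) in replicate 1 and 0.998% (0.634% to 1.49%) in replicate 2. With DCL1 as the partner, OsbZIP47KD replicate 1 lay closer to WT: AGO18 made up 7.59% (6.15% to 9.25%) and 7.85% (6.24% to 9.73%) in WT against 6.25% (4.39% to 8.59%) and 3.03% (1.93% to 4.51%) in OsbZIP47KD. With either partner the 2 WT shares lay above both transgenic shares, although the intervals of both WT libraries overlap that of OsbZIP47KD replicate 1. These intervals cover counting error only. The shares use the same AGO18 reads as the fold change above, so they are not separate evidence of a difference.

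AGO1b (Os04g0566500), one of the rice AGO1 proteins that carry microRNAs and cut their target transcripts, was at 875 and 765 CPM in WT and 753 and 544 CPM in OsbZIP47KD. The highest transgenic value thus lay just under the lowest WT value. The log2 fold change was -0.34 (standard error 0.19, 95% interval -0.76 to 0.09, adjusted p = 0.466, edgeR). Within OsbZIP47KD, replicate 2 was 0.47 lower than replicate 1 on the log2 scale, a step larger than the one between the groups. Without OsbZIP47KD replicate 1 the log2 fold change of AGO1b was -0.65 (unadjusted p = 0.00739, adjusted p = 0.191, edgeR), and without replicate 2 it was -0.12 (adjusted p = 0.855, edgeR). AGO1b lies beside the identifier Os04g0566550 in the table, whose counts were 24.8% to 26.1% of those of AGO1b in every library. The strand setting of the counting is not given in the sources used here, so it cannot be told whether the 2 rows share reads.

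AGO7 (Os03g0449200) is known in rice as SHO2 and binds the microRNA that starts the production of trans-acting small RNAs, and RDR6 (Os01g0527600), known as SHL2, makes the double-stranded RNA from which they are cut. These small RNAs restrain auxin response factor genes, and rice mutants of either gene fail in the shoot meristem. AGO7 had 200 and 150 reads in WT and 126 and 135 in OsbZIP47KD, or 37.7 and 29.8 CPM against 32.9 and 32.2 CPM. RDR6 was at 50.5 and 52.3 CPM in WT and 42.8 and 57.0 CPM in OsbZIP47KD. For both genes the groups overlapped. The log2 fold change was -0.05 (standard error 0.26, 95% interval -0.62 to 0.52, adjusted p = 0.955) for AGO7 and -0.04 (standard error 0.24, 95% interval -0.55 to 0.47, adjusted p = 0.961) for RDR6 by edgeR, and the sign of both turned with upper quartile or library size scaling. The intervals hold differences of either sign, so the values do not show that the levels were equal. The row before AGO7, Os03g0448950, had counts within 2% of AGO7 in each library, at 204 and 150 in WT and 127 and 136 in OsbZIP47KD. The same limit on shared reads holds for this pair. Among 2970 pairs of adjacent rows with at least 100 reads in each library, 155 (5.22%) agreed within 5% in this way.

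**Figure D2:**
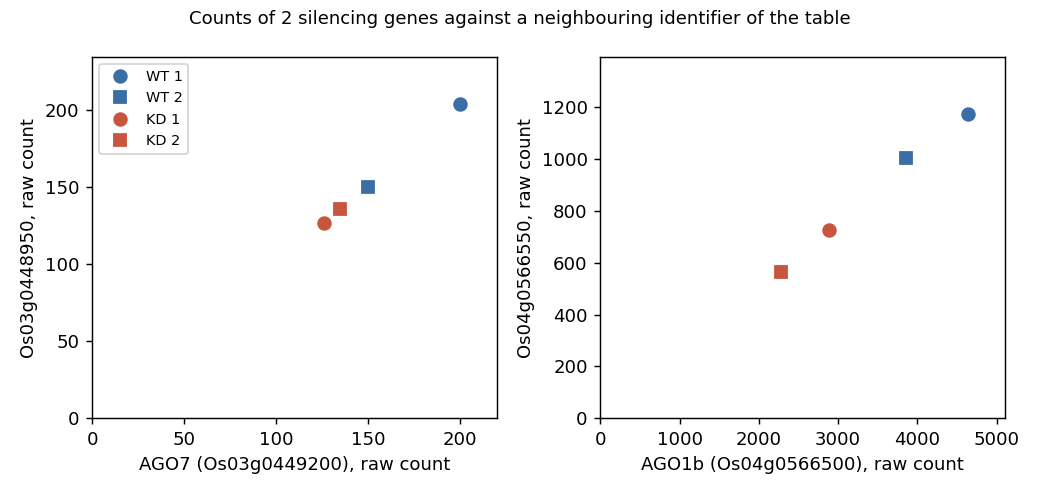
Raw read counts of AGO7 (left) and AGO1b (right) on the horizontal axes against the counts of a neighbouring identifier of the table on the vertical axes, 1 point per library. The points of Os03g0448950 lie at 100% to 102% of AGO7, and those of Os04g0566550 at 24.8% to 26.1% of AGO1b, in WT and OsbZIP47KD alike.

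None of the Dicer-like genes passed the test, and their log2 fold changes ran from -0.16 in DCL4 to -0.38 in DCL3b. The 95% intervals all hold 0 and reach -0.97 in DCL3b, so the values do not show that the levels were equal. DCL1 (Os03g0121800), which cuts microRNAs from their hairpin precursors, was at 206 and 177 CPM in WT and 137 and 176 CPM in OsbZIP47KD. OsbZIP47KD replicate 2 was therefore nearly level with WT replicate 2, and the separation of the groups rested mainly on the other transgenic library. Its log2 fold change was -0.30 (standard error 0.19, 95% interval -0.71 to 0.12, adjusted p = 0.527, edgeR).

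DCL4 (Os04g0509300), called SHO1 in rice, cuts trans-acting small RNAs and is a main enzyme for long hairpins of the kind that line 14 transcribes. It was at 134 and 121 CPM in WT and 106 and 122 CPM in OsbZIP47KD, and the groups overlapped. The log2 fold change of DCL4 was -0.16 (standard error 0.19, 95% interval -0.56 to 0.24, adjusted p = 0.759, edgeR). DCL2a (Os03g0583900), whose Arabidopsis relative DCL2 cuts viral and transgene RNA, had 103 and 78.3 CPM in WT and 78.1 and 63.7 CPM in OsbZIP47KD, so that the nearest libraries of the 2 groups were almost level. For DCL2a the log2 fold change was -0.35 (standard error 0.22, 95% interval -0.83 to 0.12, adjusted p = 0.502, edgeR). The value was -0.16 with WT replicate 1 left out and -0.58 with WT replicate 2 left out, the latter with an unadjusted p of 0.0459 and an adjusted p of 0.368 (edgeR).

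DCL3a (Os01g0909200) cuts the small RNAs that direct DNA methylation to transposons and repeats, and DCL3b (Os10g0485600) cuts phased small RNAs of the reproductive organs. DCL3a was at 116 and 124 CPM in WT and 92.9 and 109 CPM in OsbZIP47KD, and its log2 fold change was -0.25 (standard error 0.19, 95% interval -0.66 to 0.16, adjusted p = 0.601, edgeR). DCL3b had 32.2 and 39.3 CPM in WT and 25.1 and 29.8 CPM in OsbZIP47KD, and its log2 fold change was -0.38 (standard error 0.27, 95% interval -0.97 to 0.20, adjusted p = 0.565, edgeR). In both genes the transgenic libraries lay below the WT libraries, and the log2 fold change was wider than the log2 difference of either pair of replicates, although the nearest libraries of the groups were closer than that. DCL3b made up 21.8% and 24.0% of the reads of the DCL3 pair in WT and 21.2% and 21.5% in OsbZIP47KD, and each of the 4 exact binomial intervals overlapped the others, running from 17.6% at the lowest to 27.1% at the highest. No difference in the balance of the pair was therefore detectable at this depth.

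**Figure D3:**
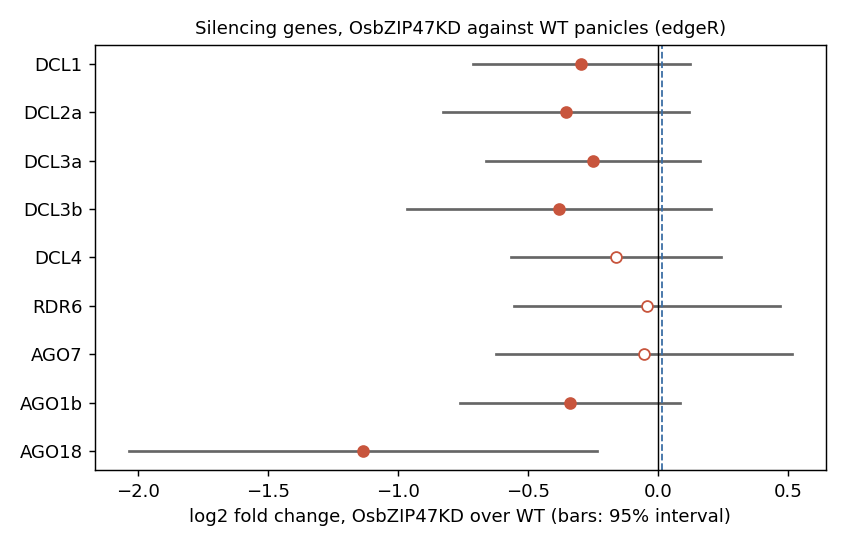
Log2 fold change of OsbZIP47KD over WT (horizontal axis) for the 9 tested genes, with bars for a 95% interval derived from edgeR's quasi-likelihood F statistic. Filled points mark the 6 genes whose transgenic libraries both lie below both WT libraries, open points the 3 that overlap, and the dashed line the median of all tested genes at 0.02; only the AGO18 bar, from -2.04 to -0.23, ends short of 0.

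Across the 9 tested genes, 6 had both OsbZIP47KD libraries below both WT libraries and 0 had both above. Over all tested genes 22.8% were separated in the lower and 23.0% in the higher direction. The share separated in the lower direction was 20.2% at 10 to 30 CPM, where 1 of the 9 lies, 33.7% at 30 to 100 CPM, where 4 lie, and 45.6% from 100 CPM upward, where the other 4 lie. In size, 8 of the 9 log2 fold changes were under 0.4. The median gene differed by 0.31 between the WT replicates and by 0.34 between the OsbZIP47KD replicates (log2 of CPM + 1). That median covers tested genes of all levels and sets single libraries against each other, so it is not a like measure for the 9 genes. In 3 of 9 genes, DCL3a, DCL3b and AGO18, the log2 fold change was wider than both log2 differences between replicates. Among all tested genes 16.1% met this rule in the lower direction, and the share was 13.8% at 10 to 30 CPM, 24.8% at 30 to 100 CPM and 36.2% from 100 CPM upward. The transgenic replicates did not move as 1 block: replicate 2 was lower than replicate 1 for AGO18, AGO1b, DCL2a and AGO7, by 0.74, 0.47, 0.29 and 0.03 in that order of genes on the log2 scale, and higher for DCL1, RDR6, DCL3a, DCL3b and DCL4, by 0.21 to 0.41.

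**Figure D4:**
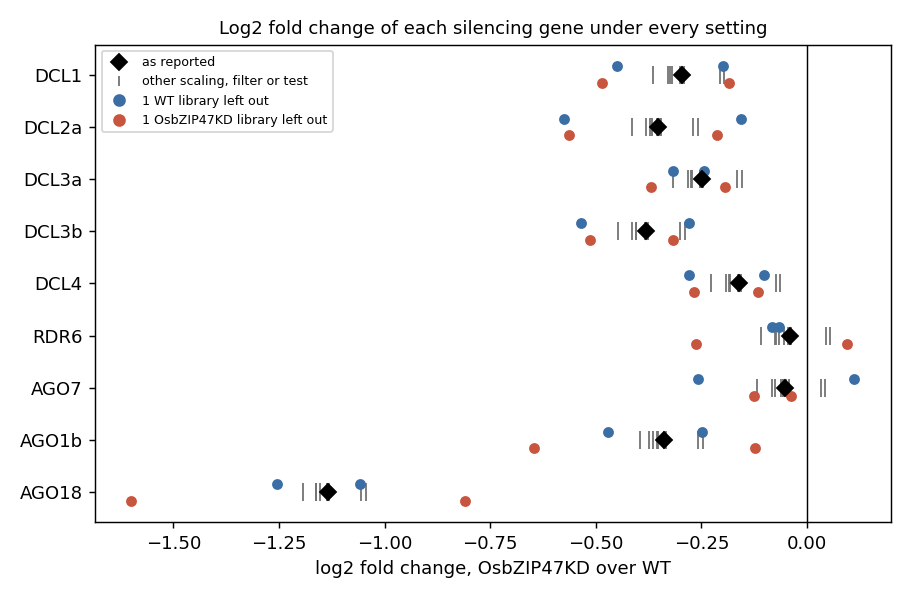
Log2 fold change of OsbZIP47KD over WT (horizontal axis) for the 9 tested genes as reported (diamonds), under other scalings, filters and tests (grey ticks), and with 1 WT (blue) or 1 OsbZIP47KD (red) library left out. AGO18 runs from -1.60 to -0.81, and RDR6 and AGO7 cross 0.

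Os01g0275200, given as AGO4a in the list, was nearly without reads, with 6 and 6 in WT and 2 and 7 in OsbZIP47KD, and was too low to be tested. AGO4 proteins carry small RNAs that guide DNA methylation, but no table at hand pairs this identifier with the name, and the name may belong to another identifier. Its few reads are therefore not taken as the level of AGO4a. The pooled level in OsbZIP47KD was 0.966 times that in WT, with an exact binomial 95% interval of 0.360 to 2.499 that covers counting error only.

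Of a wider list of 25 silencing identifiers, only AGO11 and AGO14 could be paired with a name, through the study's table of genes that it called on these samples, so they are no independent sample of the pathway. Both Argonaute genes were under the expression filter, so 0 of 2 were tested in the main fit. Both are named although neither passed the adjusted threshold, and were chosen with their values seen. AGO11 (Os03g0682600) had 1 and 46 reads in WT and 1 and 5 in OsbZIP47KD, and its level in WT rested on replicate 2 alone. AGO14 (Os07g0188000) had 3 and 1 reads in WT and 6 and 33 in OsbZIP47KD, and its level in OsbZIP47KD rested mostly on replicate 2. Without the filter edgeR gave AGO11 a log2 fold change of -2.68 (unadjusted p = 0.0471, adjusted p = 0.385). AGO14 went the other way, at 3.45 (unadjusted p = 0.00564, adjusted p = 0.136, edgeR). Both thus met the study's looser rule in that setting. With the 1 CPM filter AGO14 met it (unadjusted p = 0.0117, edgeR) and AGO11 did not (unadjusted p = 0.100, edgeR). In no setting or tool that tested them did either pass the adjusted threshold. In OsbZIP47KD replicate 2, where AGO14 was highest, TDR also had its highest count, at 37 reads against 0 to 4 in the other libraries.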

How the data were processed

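Panicle RNA of WT (n = 2) and of line 14 (n = 2) was depleted of ribosomal RNA and sequenced in pairs on an Illumina instrument. Per the labels, the authors aligned the reads with STAR 2.5.3a, and the paper names RAP-DB as the genome; the counting program and its strand setting are not given in the sources used here. The authors deposited raw counts per gene and a score, the count multiplied by 1 factor per library and rounded, which is blank for 8330 genes.

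Counts were analysed with edgeR 4.0.16 in R 4.3.3: filterByExpr (minimum count 10, minimum total 15), TMM scaling, robust quasi-likelihood test, Benjamini-Hochberg adjustment over 25289 genes. Library totals of 3839165 to 5611969 set the counting precision. Where p-values are given they set groups against the spread of 2 samples each, described in the paper as biological replicates. For each gene that spread was drawn toward the trend over all tested genes. The p-values therefore do not rest on the gene's own libraries alone. Alternatives were other scalings and filters, DESeq2 1.42.0, the exact test, limma 3.58.1 on log2 of the deposited score + 1, a replicate block, totals without the 20 most abundant genes, and fits that omit 1 library. The fit was also run on simulated data, with an outcome that is not reported here and lends no support to the values above. All 10 members were named, together with OsbZIP47, and genes of the wider list past either threshold were to be named; AGO11 and AGO14, the only paired ones, were named after their values were seen. The members and lists were chosen with earlier results of these data known. Authors' fold changes and p-values were not used. No sequence, genome or gene length table was at hand, so levels were not compared between genes.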

Additional observations from a re-analysis of the deposited data

How the results depend on the processing

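No tested silencing gene was called under any of the 14 alternatives, and DCL1, DCL2a, DCL3a, DCL3b, DCL4, AGO1b and AGO18 stayed below 0 in all of them. RDR6 was above 0 with upper quartile scaling (0.055) and library size scaling (0.045) and ran from -0.26 to 0.094 with 1 library left out. AGO7 was above 0 with upper quartile scaling (0.043) and library size scaling (0.032) and ran from -0.26 to 0.11 with 1 library left out. Upper quartile scaling moved the median of all genes to 0.11 from 0.02, and library size scaling to 0.10. AGO18 had its extremes when a transgenic library was omitted, -1.60 with replicate 1 out and -0.81 with replicate 2 out, its adjusted p from 0.165 with no filter to 0.641 without WT replicate 1, and the number of silencing genes at the study's looser rule from 0 to 1. With the replicate number as a block AGO18 was at -1.16 (adjusted p = 0.188, edgeR). Deviations of same-numbered libraries from their group means correlated with r = 0.04 over genes, so the numbers were not taken to pair the samples. The number of all genes called was 164, and 787 with no filter, 389 with DESeq2, 775 with the exact test, 596 with the replicate block and 70 to 1232 with 1 library left out; the cause was not tested. The share of called genes that were higher was 19.5%, 30.1% with library size scaling, 44.1% with the exact test (433 lower and 342 higher), 31.2% with the replicate block and 15.7% with the 1 CPM filter. OsbZIP47 ran from 1.39 to 2.20 with 1 library left out and missed the threshold without either OsbZIP47KD library. Each AGO18 value rested on 23 to 90 reads.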

Other observations

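DRB3 (Os09g0508500), a double-stranded RNA-binding protein gene that the study's table names, is named because of its values and stands on no list written for this work. Proteins of this family assist Dicer-like enzymes in Arabidopsis. DRB3 had 473 and 548 reads in WT and 781 and 898 in the libraries labelled OsbZIP47KD, or 89.2 and 109 CPM against 204 and 214 CPM, and the groups did not overlap. The level was 2.11-fold higher in OsbZIP47KD, a log2 difference of 1.08 (standard error 0.19, adjusted p = 0.0252, edgeR). It passed in 11 of 14 alternatives and missed without WT replicate 1 (adjusted p = 0.0875), without OsbZIP47KD replicate 1 (0.0832) and without OsbZIP47KD replicate 2 (0.110), all by edgeR. The study listed it from these samples, so its direction is not independent evidence.

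The identifier Os01g0275600, which stands 3 rows after Os01g0275200 in the table, had 3606 and 3574 reads in WT and 2365 and 2556 in OsbZIP47KD, where Os01g0275200 had 2 to 7. On the log2 scale OsbZIP47KD differed from WT by -0.18 (standard error 0.16, adjusted p = 0.678, edgeR). The wider list of silencing identifiers holds Os01g0275600 too and gives it as AGO15, a name that could not be paired. No table at hand names either identifier, so it is not known which of them, if either, is AGO4a, and both sets of values are given for that reason.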
